A study of Mus musculus with 12 samples.

Results

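The genes Pdgfra, Kit and Kdr lie side by side on mouse chromosome 5 and encode 3 related receptor tyrosine kinases. Histone acetylation was described here over all 3 genes and the sequence between and around them, in fibro-adipogenic progenitors (FAPs), the mesenchymal cells of skeletal muscle that can become fat cells or matrix-producing fibroblasts. The locus was defined by position only, as the sequence from 100000 bp before Pdgfra to 100000 bp after Kdr, which is chromosome 5, 75051322 to 76079072 in GRCm38, or 1027751 bp. It held 67 of the 77135 complete peaks read from all 8 lists, although only 3 of these lists reach it. Its 3 members were set among the 10942 protein-coding genes that both lists for acetylation of histone H3 at lysine 27 (H3K27ac) cover.

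The series profiled acetylated histones by chromatin immunoprecipitation and sequencing (ChIP-seq) in FAPs of mdx mice, which lack dystrophin and serve as a model of Duchenne muscular dystrophy. Young (1.5 months) and old (12 months) animals received vehicle or TSA (trichostatin A), a drug that blocks histone deacetylases. Of its 12 samples, 8 are immunoprecipitated, 1 for each mark, age and treatment, and 4 are inputs, which were not used here. As read here, 3 of the 8 peak lists reach the locus, namely H3K27ac of young TSA mice, H3K27ac of old TSA mice, and acetylation at lysines 9 and 14 (H3K9/14ac) of old TSA mice. Every library described below is therefore from dystrophin-deficient mice that were injected into the peritoneum with 0.6 mg/kg/day of TSA for 15 days. Vehicle libraries and healthy muscle were not analysed here at this locus. How many mice gave each library and which surface markers the sort used are not given in the sources used here.

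A tag is a mapped read that HOMER counted in a peak. The young H3K27ac list held 16703 complete peaks with 3907227 tags, the old one 20664 peaks with 4159284 tags, and the old H3K9/14ac list 8447 peaks with 1428048 tags. Each group has 1 library, so no test between ages or marks was possible. The intervals of tags and tag ratios are exact 95% counting intervals, which cover counting error only and not the spread between animals. Those of shares of regions are exact 95% binomial intervals, which treat regions as independent and do not cover that spread either. A stretch without a peak is written as not listed, since tags outside peaks are not in the files.

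PDGFRA, KIT and KDR (VEGFR2) share a plan of an extracellular ligand-binding part made of immunoglobulin-like domains, a single membrane span and a split kinase domain. PDGFRA binds platelet-derived growth factors and is the surface protein by which FAPs are usually recognised. KIT, the receptor for stem cell factor, is best known from mast cells, melanocytes and blood progenitors, and KDR is the main signalling receptor for VEGF-A on endothelial cells. H3K27ac and H3K9/14ac mark active promoters, and H3K27ac also marks active enhancers.

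The promoters are shown first, because the acetylation peaks stop and start again inside those of Pdgfra and Kdr. Each is a RefSeq promoter on GRCm38.p6, 5′ to 3′ on the strand of the gene, from 250 bases before the start site to 50 bases from it on. Pdgfra and Kdr have 1 such promoter each and Kit has 2, of which 1 is shown and described. Pdgfra lies at chr5:75152001-75152300 on the forward strand, Kit at chr5:75574737-75575036 on the forward strand, and Kdr at chr5:75978406-75978705 on the reverse strand. Capitals mark the bases that are in no H3K27ac peak of either TSA library.
Pdgfra: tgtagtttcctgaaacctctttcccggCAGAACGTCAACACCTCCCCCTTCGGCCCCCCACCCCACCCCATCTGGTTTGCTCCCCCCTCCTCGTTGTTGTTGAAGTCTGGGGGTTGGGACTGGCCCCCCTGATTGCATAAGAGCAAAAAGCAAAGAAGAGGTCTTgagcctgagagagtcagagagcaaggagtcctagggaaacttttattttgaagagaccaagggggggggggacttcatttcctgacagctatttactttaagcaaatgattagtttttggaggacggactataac
Kit: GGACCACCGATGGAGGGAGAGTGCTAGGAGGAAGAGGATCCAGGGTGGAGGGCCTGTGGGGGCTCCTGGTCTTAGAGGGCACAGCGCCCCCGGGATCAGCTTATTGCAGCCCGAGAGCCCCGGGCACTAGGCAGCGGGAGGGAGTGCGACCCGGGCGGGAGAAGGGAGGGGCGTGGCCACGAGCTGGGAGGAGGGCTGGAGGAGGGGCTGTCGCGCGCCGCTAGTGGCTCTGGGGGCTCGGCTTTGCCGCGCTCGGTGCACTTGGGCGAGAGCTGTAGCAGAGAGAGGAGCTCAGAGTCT
Kdr: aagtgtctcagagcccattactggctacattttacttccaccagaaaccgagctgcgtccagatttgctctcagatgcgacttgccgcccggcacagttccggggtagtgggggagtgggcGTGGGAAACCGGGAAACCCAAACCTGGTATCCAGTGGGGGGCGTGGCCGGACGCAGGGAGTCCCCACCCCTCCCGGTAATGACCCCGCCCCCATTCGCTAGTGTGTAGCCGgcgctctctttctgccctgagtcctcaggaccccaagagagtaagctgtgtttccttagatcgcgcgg

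No base of the Kit promoter shown was in a peak, and the Pdgfra and Kdr promoters each held a stretch between peaks. In Pdgfra the stretch outside H3K27ac peaks was 138 bases, from position -223 to -86 counted from the start site. In Kdr it was 111 bases, from -129 to -19. Peaks touched 33.5% of promoters of the covered stretch in the young H3K27ac library, and 37.0% of those touched were not covered whole, whether a peak ended there or left a gap. The shares were 34.5% and 45.0% in the old H3K27ac library. In the old H3K9/14ac library they were 36.5% and 47.2%. The H3K9/14ac library left the whole Pdgfra promoter out of its peaks and covered all 300 bases of the Kdr promoter.

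The promoters also differed in base composition. The G and C content was 51.0% in Pdgfra, 69.0% in Kit and 60.7% in Kdr, with a median of 53.0% over the 31396 promoters of the table. The ratio of observed to expected CpG was 0.256 in Pdgfra, 0.621 in Kit and 0.689 in Kdr, beside a median of 0.389. Of 6 motifs searched on both strands, GGGCGG, the letters bound by SP and KLF factors, was present once in Kit with its first base at -98. It was present at 2 places in Kdr, at -166 and -45, the latter inside the stretch between peaks, and not in the Pdgfra window, and 36.0% of all promoters hold it. The ETS core GGAAG was found in Kit at -221 and in Kdr at -216, and 71.3% of promoters hold it. The E-box letters CANNTG were found in Pdgfra at -182 and 17, in Kit at 8 and in Kdr at -179, and 72.2% of promoters hold them. The GATA letters GATAA were in none of the 3 windows, and 25.3% of all promoters hold them. The same was true of the AP-1 letters TGANTCA, which 7.84% of promoters hold. It was also true of CCAAT, which 37.3% hold. Overlaps between motifs were not removed, and a match of letters is not a bound site.

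The libraries carried acetylation at FAP genes and also at endothelial genes. Over all 10942 genes of the covered stretch, 6400 had an H3K27ac peak in both libraries and 4175 (38.2%) in neither. All 17 FAP markers in the stretch had an H3K27ac peak in both libraries, among them Prrx1, a mesenchymal transcription factor, with 1845 tags in the young and 3041 in the old library. All 19 endothelial markers did too, among them Cdh5 (VE-cadherin) with 2562 and 1448 tags. Of 9 mast cell and melanocyte markers, 6 had no peak in either library, with Kit itself counted among them. Others were Cpa3 and Fcer1a, which encode a mast cell protease and the IgE receptor chain. Of 11 macrophage markers, 5 had no peak in either library, 3 had a peak in both, 1 in the young only and 2 in the old only. Spi1, the macrophage transcription factor PU.1, was among those listed in the old library only, with 217 tags.

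The 3 genes differed widely in acetylation. In the young H3K27ac library, 33 peaks lay in the locus, of which 5 were nearest to Pdgfra, 3 to Kit and 25 to Kdr. In the old library 26 peaks lay there, with 8, 2 and 16 for the same genes. The H3K9/14ac library of old mice had 8 peaks, 7 at Pdgfra and 1 at Kdr. Peaks covered 2.76% of the locus in young H3K27ac, 1.97% in old H3K27ac and 0.816% in old H3K9/14ac. Kdr peaks held 55.3% of the H3K27ac tags of the locus in the young library and 32.3% in the old one, while the share of Pdgfra was 41.7% and 64.7%. Gsx2, a homeobox gene between the border of the locus and Pdgfra, was nearest to no peak.

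**Figure D1:**
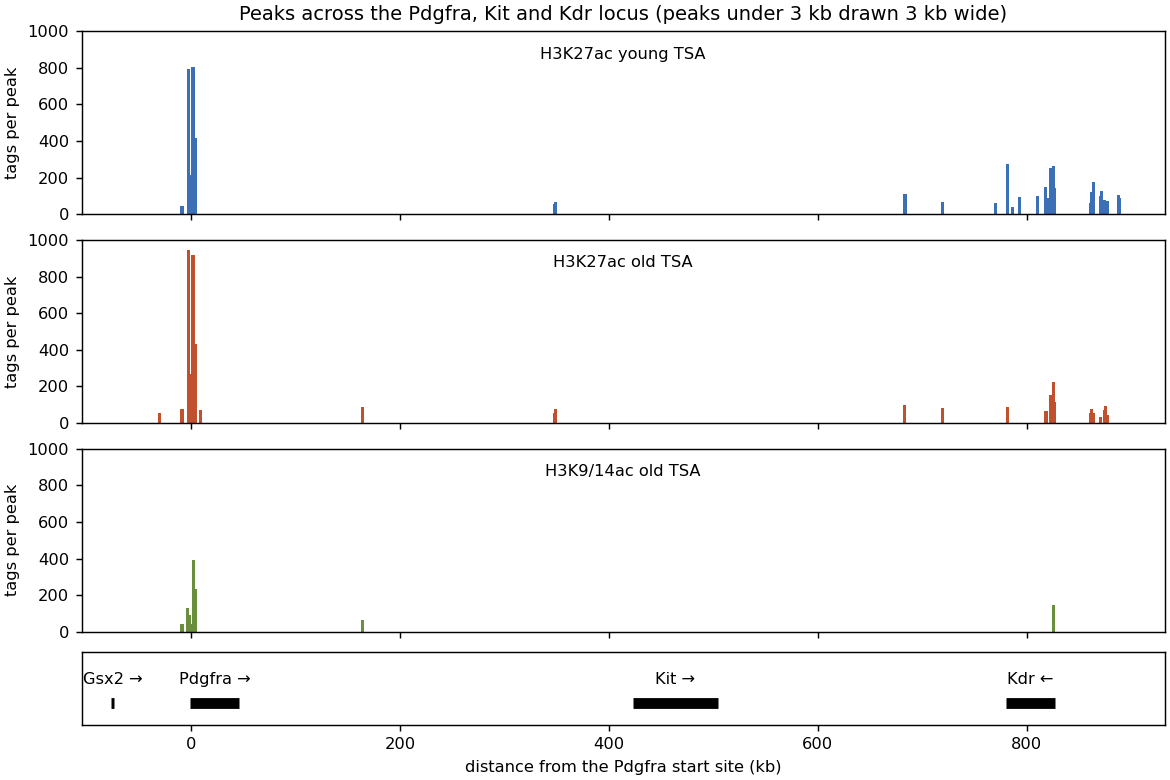
Tags in each peak (vertical axis) against distance in kb from the Pdgfra start site (horizontal axis), for the 3 libraries that reach the locus, with gene bodies and their direction below; 1 library per panel, so there are no error bars, and peaks under 3 kb are drawn 3 kb wide. Pdgfra carries a compact group of strong peaks in all 3 panels, Kit carries none, and the 25 young H3K27ac peaks given to Kdr are spread out and lower.

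Pdgfra carried a compact and strong block of acetylation around its start site in every library. The gene (NCBI gene 18595) lies at 75151322 to 75198206 on the forward strand. Within the gene and 10000 bp either side, H3K27ac peaks covered 9170 bp with 2274 tags (2181 to 2369) in the young library. In the old library they covered 9794 bp with 2703 tags (2602 to 2807). Per kb of this window the level was 34.0 tags in the young and 40.4 in the old library. These tags placed Pdgfra at percentile 95.5 of the genes with a peak in the young library and at percentile 96.2 in the old one.

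Most of this signal came from a pair of wide peaks. The peak from 75147801 to 75151067, before the start site, had 792 tags in the young library, and the peak from 75152165 to 75155303, over the start of the transcribed part, had 807. In the old library the matching peaks, 75147698 to 75151103 and 75152267 to 75155303, had 943 and 918 tags. Together each pair held 70.3% of the tags given to Pdgfra in the young library and 65.4% in the old one. With widths of 3266 and 3138 bp they ranked at percentiles 98.1 and 97.8 of all young peaks, and in the old library 3405 and 3036 bp gave percentiles 98.4 and 97.7.

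The peaks next to the start site left a gap of 169 bp in the young library, from 75151996 to 75152165. In the old library the gap was 240 bp, from 75152027 to 75152267, and the promoter table places the start site at 75152251, inside the old gap and just inside the young peak. The H3K9/14ac gap was 1318 bp long, from 75151088 to 75152406. When peaks within 12.5 kb of each other were joined into domains, the Pdgfra domain ranked 200 of 7293 by tags in the young H3K27ac library, 178 of 8055 in the old one and 102 of 5210 in the H3K9/14ac library. These ranks are the strongest 2.74%, 2.21% and 1.96% of domains. They depend on the joining distance, with 1.19%, 0.939% and 0.876% at 5000 bp and 5.45%, 4.68% and 4.51% at 25000 bp, and ranks from lists of different length show no change.

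**Figure D2:**
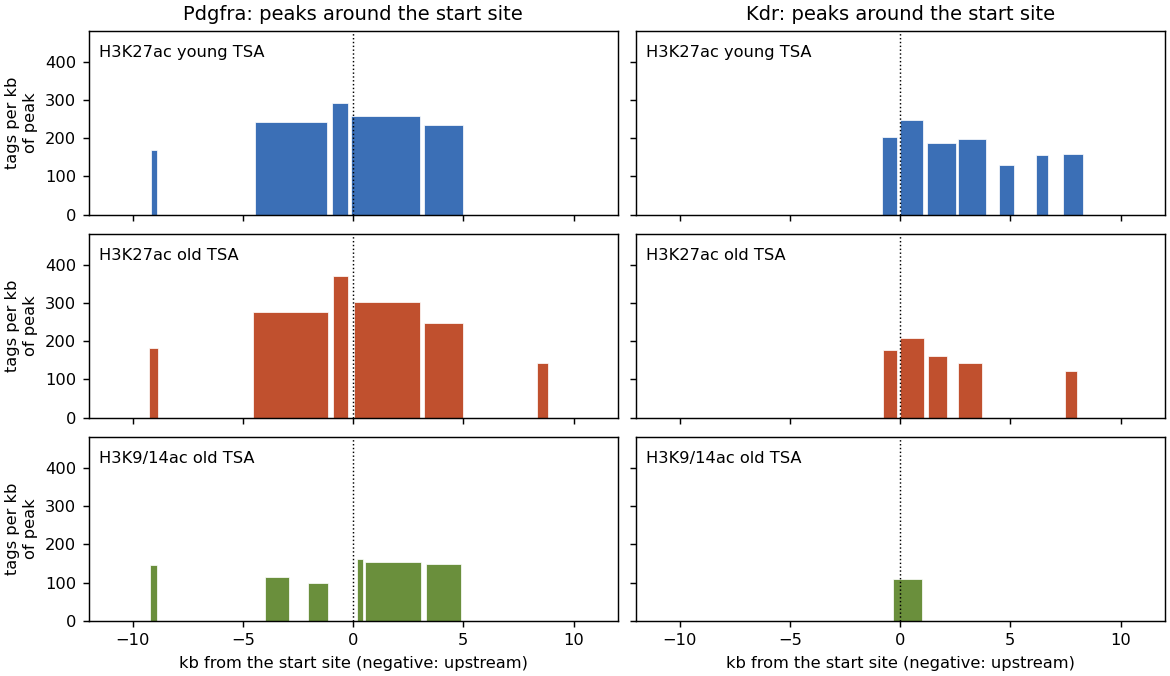
Tags per kb of peak (vertical axis) over the 12 kb either side of the start sites of Pdgfra and Kdr (horizontal axis, in kb along the direction of transcription); each bar is a peak with its own width, the dotted line is the start site, and there is 1 library per panel. The 4 strongest young H3K27ac peaks at Pdgfra lie between -4449 and 4992 bp, with a gap near the start site and a weaker peak of 44 tags further upstream, whereas Kdr is covered mainly after its start and its H3K9/14ac is a single peak.

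Between the ages, Pdgfra differed little. The measure used is relative tags, the log2 ratio of old to young tags in the gene window minus 0.04, the median log2 ratio over the 13271 regions with a peak in both H3K27ac TSA libraries. Pdgfra stood at 0.21 (0.13 to 0.29), a 1.16-fold higher value in old mice, which is short of the 1.5-fold used as a call. Among the 6400 genes with a peak in both libraries, 9.62% were at least 1.5-fold higher and 4.94% at least 1.5-fold lower in old mice, and Pdgfra stood at percentile 75.3. Of these calls 66.1% were higher, and the share was 49.2% when total tags in peaks set the scale and 82.4% when housekeeping genes did. Its covered length was 1.07-fold longer in old mice, at percentile 57.8, beside 12.0% of genes whose length was at least 1.5-fold longer.

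Region by region, peaks of both libraries that overlapped or touched were merged. Pdgfra had 8 such regions, 5 with a peak in both libraries and 3 in the old library only, beside 27.7% of all 20700 regions that were in the old library only. Relative tags of the 5 shared regions ran from 0.01 (-0.19 to 0.21) at 4.1 kb after the start site, with 419 and 432 tags, to 0.71 (0.16 to 1.29) at -9.1 kb, before it, with 44 and 74 tags. The regions of the wide peaks had values of 0.22 (0.08 to 0.35) and 0.15 (0.01 to 0.29), and the region ending at the promoter had 0.29 (0.03 to 0.56), with 212 and 266 tags. All 5 were at or above the typical region, and 1, the one at -9.1 kb, was past 1.5-fold, beside 11.6% of all shared regions. The regions listed in the old library only held 53 tags at -30.6 kb, 70 tags at 8.6 kb and 88 tags at 163.9 kb from the start site. The last, 75315854 to 75316406, lies beyond the 3′ end of the gene and also held an H3K9/14ac peak, 75316058 to 75316406, with 62 tags. The regions at -9.1 kb and -30.6 kb lie inside Gm19583, a long non-coding RNA gene at 75110321 to 75147107, and cannot be given to Pdgfra alone.

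Kit had no acetylation peak on or near it. The gene (NCBI gene 16590) lies at 75574987 to 75656722 on the forward strand, and no peak of the 3 libraries fell in it or within 10000 bp of it. This is not unusual, since 38.2% of all genes of the covered stretch had no H3K27ac peak in either library, and Kit shares that pattern with 4174 other genes. The nearest peaks were a small group before its start site, at -73.8 to -75.4 kb. In the young library this group had 3 peaks with 164 tags (140 to 191) over 894 bp, and in the old library 2 peaks with 134 tags (112 to 159) over 806 bp. Merged, they gave 3 regions, of which 1 was shared, 1 was in the young library only, with 55 tags, and 1 in the old library only, with 57. The shared region, 75500876 to 75501533, had 109 and 77 tags and relative tags of -0.54 (-0.98 to -0.10). No H3K9/14ac peak was nearest to Kit, beside 38.1% of genes without an H3K9/14ac peak in their window.

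**Figure D3:**
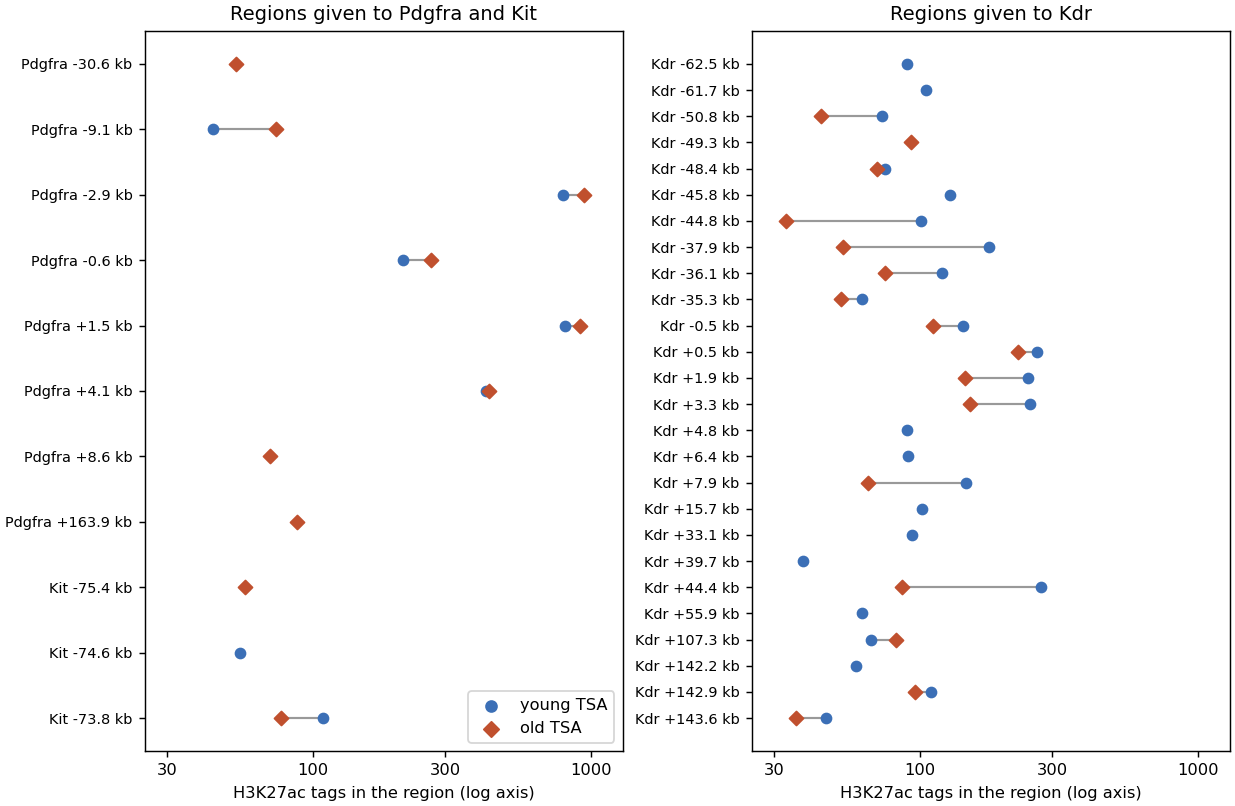
H3K27ac tags (horizontal log axis) in each merged region of the locus, named by the gene it is given to and its distance in kb from that gene's start site along the direction of transcription; circles are the young and diamonds the old TSA library (1 library each, no error bars), a line joins regions with a peak in both, and a lone symbol is a region with a peak in that library only. The 5 shared Pdgfra regions have diamonds to the right of circles, and all shared Kdr regions but the one at 107.3 kb have them to the left.

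Kdr carried less listed H3K27ac in the old than in the young TSA library, summed over the gene body and over the peaks on either side. A region not listed in a library adds 0 tags to its sum. The gene (NCBI gene 16542) lies at 75932827 to 75979072 on the reverse strand, with its start site at 75978455. Its window had 11 peaks over 9690 bp with 1739 tags (1658 to 1823) in the young library. In the old library it had 6 peaks over 4565 bp with 785 tags (731 to 842). The level per kb of window was 26.3 tags in the young and 11.8 in the old library, below that of Pdgfra in both. Relative tags were -1.18 (-1.31 to -1.06), a 2.27-fold lower value in old mice, and the covered length was 2.12-fold shorter. Over all peaks nearest to Kdr, tags per kb of peak were 165 in the young and 162 in the old library. Summed over these peaks, the lower tags thus went with less listed length, so tags and length are not independent measures. Single peaks differed in density in both directions. The peak just inside the gene at its start had 249 tags per kb in the young and 209 in the old library. The peak at the 3′ end had 182 and 235. Kdr stood at percentile 0.570 of genes for relative tags and 0.883 for covered length, beside 4.94% and 4.27% of genes that were at least 1.5-fold lower or shorter. The difference between Kdr and Pdgfra was -1.40 (-1.54 to -1.25) on the log2 scale, and with every peak of the locus given to its nearest gene it was -1.41 (-1.53 to -1.29).

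The lower signal was spread over many regions. Kdr had 26 merged regions, of which 10 (38.5%, exact binomial 20.2% to 59.4%) were listed in the young library only, and 8.23% of all regions were. In the old library only, 1 region was listed, 76027391 to 76028092 with 93 tags. Relative tags were below 0 in 14 of the 15 shared regions, beside 6635 of all 13271 shared regions, which the scaling centres on 0, and at least 1.5-fold lower in 8 of the 15, beside 7.49%. The exception above 0 was the region from 75870991 to 75871378, 107.3 kb after the start site, with 67 and 82 tags and a value of 0.26 (-0.23 to 0.74). Regions of 1 gene share a library and are not replicates, which the binomial interval does not take into account.

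Around the Kdr start site the values of both ages differed less than over the gene as a whole. The region just inside the gene, centred 0.5 kb after the start site, had 265 and 225 tags and relative tags of -0.27 (-0.53 to -0.01). The region before the start site had 143 and 112 tags and -0.39 (-0.76 to -0.02). Further into the gene, the regions at 1.9 kb and 3.3 kb had 245 and 145, and 250 and 152 tags, with -0.79 and -0.75. At the 3′ end of the gene, the region 75933315 to 75934818 had 274 tags, the highest of any Kdr region in the young library, and 86 in the old one, or -1.71 (-2.07 to -1.35). Its peak was 1503 bp wide in the young and 366 bp in the old library, with 182 and 235 tags per kb of peak. All 5 gene-body regions listed in the young library only lay 4.8 to 39.7 kb after the start site, and they held between 38 and 102 tags.

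A second group of peaks lay before the Kdr start site, at -35.3 to -62.5 kb from it. It had 9 peaks with 933 tags in the young and 7 peaks with 420 tags in the old library, giving relative tags of -1.19 (-1.36 to -1.02), close to the -1.18 of the gene body. Within it the region at -37.9 kb had 178 and 53 tags, or -1.78 (-2.25 to -1.33), and the region at -44.8 kb had 101 and 33, or -1.65 (-2.26 to -1.07). The regions at -35.3 kb and -48.4 kb, with 62 and 52 and with 75 and 70 tags, had intervals that reach above 0. The peaks after the 3′ end of the gene had 344 and 214 tags, or -0.72 (-0.97 to -0.47). Unlike at Pdgfra, the tags were not concentrated in a few peaks: the 2 strongest Kdr peaks held 17.9% of its tags in the young and 26.6% in the old library. No Kdr peak of the H3K27ac libraries was wider than 1503 bp.

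The windows of the genes next to the locus on either side did not share the difference. Chic2, the last gene before it, had 1139 tags in the young and 1234 in the old library and relative tags of 0.08. Srd5a3, the first gene after it, had 414 and 539 tags and relative tags of 0.34. The first H3K27ac peak listed past the Kdr side of the locus lies outside the Srd5a3 window. It had 161 tags in the young and 71 in the old library, so lower tags were also listed beyond the border. Of the long non-coding RNA genes in the locus, Gm32727, at 75977332 to 76013212, overlaps the start of Kdr, so that peaks there cannot be given to either gene alone.

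In old TSA mice the marks differed between the genes. H3K9/14ac peaks in the Pdgfra window covered 6704 bp with 926 tags (867 to 988), and those in the Kdr window covered 1336 bp with 146 tags (123 to 172). Of the H3K27ac regions, 5 of 8 at Pdgfra, 0 of 2 at Kit and 1 of 15 at Kdr (6.67%, exact binomial 0.169% to 31.9%) also held an H3K9/14ac peak, beside 37.1% of all H3K27ac regions in the stretch both lists cover. There the H3K9/14ac list had 8447 peaks against 17809 of H3K27ac. The upper 50% of old H3K27ac peaks by tags held 4 of the 8 Pdgfra and 3 of the 16 Kdr peaks, and regions were not matched for tags. The Kdr region with both marks was the start site itself, where the H3K9/14ac peak from 75977460 to 75978796 spans the gap between the H3K27ac peaks. The H3K9/14ac length was 68.5% of the H3K27ac length at Pdgfra and 29.3% at Kdr, with a median of 89.7% over genes with both marks.

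The log2 ratio of H3K9/14ac to H3K27ac tags, relative to its median of -0.67 over regions with both, was -0.87 (-0.98 to -0.77) at Pdgfra and -1.76 (-2.02 to -1.50) at Kdr. Both genes lay low among genes with both marks, at percentiles 18.5 and 5.75. The marker lists were low as well. All 15 FAP markers with both marks were below 0, with a median of -1.84, and so were all 13 endothelial ones, with a median of -1.74, while 51.1% of all genes with both marks were. Pdgfra was thus less low than the median FAP marker, and Kdr lay near the median endothelial marker.

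Other endothelial markers were also mostly lower in the old library. Apart from Kdr, 13 of 18 endothelial markers had relative tags below 0, beside 3597 of all 6400 genes, and 4 of 18 were at least 1.5-fold lower and 0 higher, beside 4.94% and 9.62% of all genes. Their median was -0.37, beside -0.06 over all genes. Aplnr, the apelin receptor, had 1710 and 814 tags and -1.11 (-1.23 to -0.99). Cdh5 stood at -0.86, Emcn (endomucin) at -0.97, Sox17 at -0.65, Tek, the angiopoietin receptor, at -0.51 and Eng (endoglin) at -0.26. The 5 markers above 0 were Vwf (von Willebrand factor) at 0.37, Lyl1 at 0.28, Klf2 at 0.24, Flt1 at 0.22 and Plvap at 0.14. The summed tags of all 19 endothelial markers were 31293 in the young and 25416 in the old library. Fewer endothelial cells in the sorted sample and less acetylation per cell cannot be told apart in bulk libraries, and the part of either in the Kdr result was not tested. The direction of these values was the same under every scaling tried.

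FAP markers were mostly higher in the old library. Apart from Pdgfra, 12 of 16 had relative tags above 0, beside 2803 of all 6400 genes, with a median of 0.36. Of the 16, 4 were at least 1.5-fold higher and 1 was lower, beside 9.62% and 4.94% of all genes, and 2 were higher when total tags in peaks set the scale. Gsn (gelsolin) had 1631 and 3421 tags, or 1.03 (0.95 to 1.12), and Prrx1 had 0.68 (0.60 to 0.77). Postn (periostin), a matrix protein, had 333 and 147 tags, or -1.22 (-1.51 to -0.93). Cd34, a surface protein of FAPs that endothelial cells carry too, was at -0.08. The value of Pdgfra, 0.21, thus lay below the median of the other FAP markers. Summed tags of the FAP list were 31236 and 37611, and the part of the share of FAPs in each sample was not tested.

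The lists for other cells that muscle can hold were small, and their counts stand beside 9.62% higher and 4.94% lower over all genes. Of mast cell and melanocyte markers, 3 had peaks in both libraries and 1 was at least 1.5-fold higher in old mice, namely Mitf, a transcription factor of both cell types, with 1190 and 2430 tags, or 0.99. Hdc, the enzyme that makes histamine, had 199 tags in either library. None of 3 macrophage markers with peaks in both passed 1.5-fold. Of 5 lymphocyte markers 1 was higher, Cd4, with 136 and 236 tags, or 0.76 (0.45 to 1.07). Of 6 muscle markers 1 was lower, Myog (myogenin), with 133 and 70.0 tags, or -0.97 (-1.40 to -0.53). The other 5 were above 0, and the median of the 6 was 0.14. A further 2 muscle markers, Tnnt3 and Tnni2, were listed in the old library only, with 397 and 79 tags. Of 2 pericyte markers 1 was higher, Rgs5, with 126 and 238 tags, or 0.88. With a flank of 2000 bp, the lymphocyte, muscle and pericyte lists had 0 genes past 1.5-fold. None of 19 housekeeping genes passed 1.5-fold, and their median was -0.13.

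**Figure D4:**
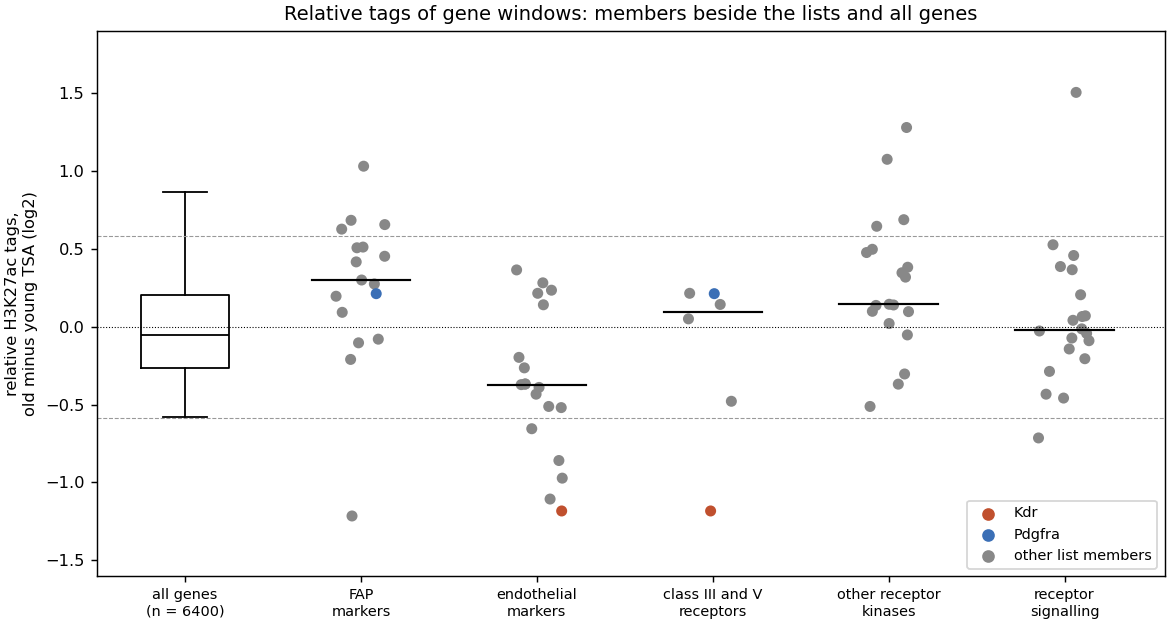
Relative H3K27ac tags, old minus young TSA, on a log2 scale (vertical axis) for all 6400 genes with a peak in both libraries (box with quartiles and median, whiskers at percentiles 5 and 95) and for the members of 5 gene lists (points, horizontal bar at the list median); dashed lines mark 1.5-fold, and each value compares 1 library with 1. Kdr is the lowest point of the endothelial and receptor lists, and Pdgfra lies at 0.21, near the upper edge of the box.

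The other receptors of the family and their ligands showed no shared direction. Of 8 class III and V receptor kinases and co-receptors in the covered stretch, the 3 members included, 6 had peaks in both libraries. Of these, 0 were at least 1.5-fold higher and 1, Kdr, was lower, beside 9.62% and 4.94% of all genes. Without the members, 4 of 5 had peaks in both libraries, with 0 higher and 0 lower. The median of the 6 was 0.10 and became -0.0022 when total tags in peaks set the scale. Flt1, the VEGF receptor that acts largely as a decoy, had 2057 and 2449 tags, or 0.22, and so differed in direction from Kdr although endothelial cells carry both. Nrp1 (neuropilin 1), a co-receptor for VEGF, had 3624 and 2667 tags, or -0.48, and Nrp2 had 2546 and 2705, or 0.05. Pdgfrl, a receptor-like protein without a kinase, had 316 and 358 tags, or 0.14. Flt3, like Kit, was without a peak in both libraries.

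Among the ligands, Pdgfa, which encodes PDGF-A, a ligand of PDGFRA, had 41 tags over 237 bp in the young and 173 over 1140 bp in the old library. Its relative tags were 2.04 (1.54 to 2.57). Of 3 ligands with peaks in both libraries it was the only one past 1.5-fold, beside 9.62% of all genes that were higher. With only the upper 50% of peaks by tags, 0 ligands were higher. Vegfc, a ligand of FLT4 and KDR, had 404 and 519 tags, or 0.33, and Pdgfd 354 and 336, or -0.11. Pdgfc, another PDGFRA ligand, had no peak in either library.

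Signalling genes that act below these receptors were mostly near the middle. Of 20 with peaks in both libraries, 1 was at least 1.5-fold higher and 1 lower, beside 9.62% and 4.94% of all genes, with a median of -0.02 that turned to 0.11 when housekeeping genes set the scale. The gene past the threshold on the higher side was Ptprj, a receptor phosphatase, with 233 and 679 tags, or 1.51 (1.29 to 1.73). On the lower side it was Inpp5d, the phosphatase SHIP1 of blood cells, with 368 and 230 tags, or -0.71 (-0.96 to -0.47). Of 19 other receptor kinases with peaks in both, 4 were higher and 0 lower, beside 9.62% and 4.94% of all genes, with a median of 0.15. The counts were 3 and 1 when total tags in peaks set the scale, and 2 and 0 at 2-fold. They included Tyro3 at 1.28 (0.76 to 1.84) and Insr, the insulin receptor, at 1.08 (0.78 to 1.38).

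Genes whose tags were most like those of each member were found by the distance between log2(tags + 1) values over the 2 H3K27ac libraries. For Pdgfra they were Capg with 2283 and 2717 tags, Bcl3 with 2216 and 2667, and Ppp4c with 2304 and 2632. For Kdr the nearest was Aplnr, at a distance of 0.06, followed by Magi1 with 1529 and 755 tags and Zfp787 with 1650 and 931. Likeness over 2 libraries rests on 2 values per gene.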

How the data were processed

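Per the file headers, the authors wrote each peak list with HOMER, per library and not pooled, and the deposited tag counts per peak are raw counts that are not normalized. The submitters' processing notes name GRCm38. Each list as read here breaks off in 1 incomplete line: 50.8% of the young H3K27ac, 49.4% of the old H3K27ac and 42.5% of the old H3K9/14ac TSA peaks were read, and the other 5 lists end before the locus. Total reads per library were not among the sources used here. Gene positions and promoters came from RefSeq tables of GRCm38.p6, in which 273 of 276 list symbols matched. Protein sequences and exons were not used here.

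Peaks were given to the nearest protein-coding gene or summed in the gene with 10000 bp either side, with tags in proportion where a peak crossed the border. Regions merged peaks with 1 bp of overlap or touching. With 1 library per group, no test was run. Intervals are exact Poisson (tags), exact conditional binomial (tag ratios) or exact binomial (shares). Python 3.11.15, pandas 2.3.3 and scipy 1.17.1 were used, and the code was tested on simulated data.

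The members, lists and thresholds were chosen with earlier results of these data known. The text names the 3 genes, every gene nearest to a peak of the locus, the ligands and receptors, up to 2 genes furthest in either direction of each other list with at least 50 tags and past 1.5-fold, defining markers, and the 3 genes most like each member. Fcer1a, Emcn, Sox17, Vwf, Lyl1, Klf2, Plvap, Chic2, Srd5a3, Gsx2, Gm19583 and Gm32727 were added after their values were seen. Alternatives were other scalings, flanks, overlaps, folds and peak subsets.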

Additional observations from a re-analysis of the deposited data

How the results depend on the processing

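Of 83 values recomputed for the main comparisons, 68 stayed within the set limits and 15 moved. A reversal of sign was recorded only for member log2 ratios whose main value passed 1.5-fold, so only for Kdr, and 0 of these reversed. Of 138 others, which were tags and covered bp per gene, domain ranks and counts in the other gene lists, 108 stayed and 30 moved. With only the upper 50% of peaks by tags, the young H3K27ac library kept 0 peaks for Kit and 7 for Kdr, the old one 4 for Pdgfra, 0 for Kit and 3 for Kdr, and H3K9/14ac 2 for Pdgfra. With lists of equal length, Kit had 1 peak in the old library. The relative tags of Pdgfra were 0.11 scaled by total tags in peaks and 0.34 scaled by housekeeping genes, and those of Kdr were -1.06 scaled by housekeeping genes and -1.31 with the upper 50% of peaks. The percentile of Kdr ran from 0.323 to 1.01 and that of Pdgfra from 74.5 to 79.2. When an overlap of 50% was asked for, 2 Kdr regions were in the old library only. FAP markers at least 1.5-fold higher numbered 2 with total tags as the scale, and 1 FAP marker was past 2-fold. Of the endothelial markers 2 were more than 2-fold lower.

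The all-gene calls, 616 higher and 316 lower, became 492 and 508 scaled by total tags, 866 and 185 scaled by housekeeping genes, 460 and 442 with lists of equal length, and 245 and 69 at 2-fold. Scaling by housekeeping genes raises every value by 0.13 on the log2 scale. No paired analysis was possible because each group has 1 library. Old TSA lists more but narrower peaks than young TSA (median 685 against 803 bp), and a weak region can miss either list.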
